A study of Mus musculus with 38 samples.

Results

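The genes of 9 transcription factors of T-cell identity (*Bcl11b*, *Gata3*, *Tcf7*, *Lef1*, *Ikzf1*, *Ets1*, *Bcl6*, *Tox* and *Tcf12*) were examined for SATB1 peaks in mouse thymocytes, brain and skin. The members were taken by name from the GENCODE vM1 annotation on NCBI37/mm9, and all 9 were found among 22367 protein-coding genes of chromosomes 1 to 19, X and Y. For each gene, the peaks of 11 lists were counted by their summits in a window made of the gene body and 200 kb on either side. All tissues came from *Satb1*+/+ C57BL/6 mice. SATB1 was immunoprecipitated from thymocytes, brain and skin by urea ChIP-seq, where centrifugation of fixed chromatin through urea leaves DNA with the proteins bound directly to it, and from thymocytes also by standard ChIP-seq. Each of these 4 groups had 2 lists. Single lists held CTCF urea ChIP-seq of thymocytes and of skin, from the same genotype and strain. The last list was the base unpairing region (BUR) reference map, which records purified thymus DNA fragments bound by SATB1 protein in vitro and is therefore no measurement in cells.

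The labels tagged the thymus and skin mice as postnatal day 13 and the brain mice as 5 weeks and 6 weeks old. The titles of standard replicate 1 and of the thymocyte CTCF library gave 6 weeks against their day 13 tag, and the ages in the study's methods differ in part from the labels. The urea libraries for SATB1 were made with the home-made antibody 1583D. The titles of both thymocyte urea libraries share a code number, whose meaning the labels do not give, and differ in antibody volume (4 μl and 2 μl). Those of both brain libraries share another code number and differ in PCR cycles (10 and 12). The titles of both skin SATB1 libraries likewise share a code number, and they differ in sonication (55 s and 60 s). Standard replicate 1 used the Abcam antibody ab109122 with 15 s of sonication and replicate 2 used 1583D with 150 s, so antibody and sonication cannot be told apart from replicate in that group. No label says that replicates came from separate animals, and p-values then measure only the spread between these libraries, which may be technical. The labels name only thymus, brain and skin (the study's methods give frontal cortex for brain and describe primary epidermal keratinocytes isolated from skin). Cell suspensions of thymus and cortex hold several cell types, and peak lists carry no expression by which a tissue label could be checked.

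SATB1 is a chromatin-organising protein that is abundant in thymocytes. BURs are stretches of DNA that unpair readily under superhelical strain, and they typically hold runs in which one strand lacks G. The 9 factors act along the T-cell pathway. TCF1 (the product of *Tcf7*) and its relative LEF1 are HMG-box factors that act early in T-cell specification, GATA3 is needed from the earliest T-cell stages to the CD4 lineage, and BCL11B closes off other fates at commitment. Ikaros (*Ikzf1*) and ETS1 act broadly in lymphocytes, HEB (*Tcf12*) is an E protein that partners E2A in thymocytes, TOX is required for development of CD4 T cells after positive selection, and BCL6 directs T follicular helper cells.

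The BURs bound by SATB1 at these genes looked unlike the sites of standard ChIP-seq, as the DNA itself shows. The sequences below are 240 bases of mm9 around a thymocyte summit. The first 6 were chosen because they are the strongest urea peaks on a BUR in the body of the gene (*Tox*, *Tcf12*) or, where the body held none, in its window (*Gata3*, *Ikzf1*, *Bcl11b*, *Lef1*). Capitals mark the longest run without G on one strand, which in the printed forward strand is a run without G or a run without C.
Tox urea, chr4:6781050-6781289, forward strand: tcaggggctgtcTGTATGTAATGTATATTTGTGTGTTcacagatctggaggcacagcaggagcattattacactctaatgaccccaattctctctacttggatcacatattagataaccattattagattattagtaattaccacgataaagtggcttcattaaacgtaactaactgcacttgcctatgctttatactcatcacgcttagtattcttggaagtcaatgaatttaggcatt
Tcf12 urea, chr9:71812108-71812347, forward strand: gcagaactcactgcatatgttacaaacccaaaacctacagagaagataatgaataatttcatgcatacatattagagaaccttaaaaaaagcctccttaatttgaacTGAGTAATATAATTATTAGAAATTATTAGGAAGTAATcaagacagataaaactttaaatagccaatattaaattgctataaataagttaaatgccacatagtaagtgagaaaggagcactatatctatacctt
Gata3 urea, chr2:9914849-9915088, forward strand: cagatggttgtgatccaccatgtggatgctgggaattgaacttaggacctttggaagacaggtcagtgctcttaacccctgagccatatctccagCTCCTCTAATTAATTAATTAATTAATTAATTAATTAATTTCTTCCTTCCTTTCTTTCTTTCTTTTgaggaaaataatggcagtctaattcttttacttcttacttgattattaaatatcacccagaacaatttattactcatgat
Ikzf1 urea, chr11:11486323-11486562, forward strand: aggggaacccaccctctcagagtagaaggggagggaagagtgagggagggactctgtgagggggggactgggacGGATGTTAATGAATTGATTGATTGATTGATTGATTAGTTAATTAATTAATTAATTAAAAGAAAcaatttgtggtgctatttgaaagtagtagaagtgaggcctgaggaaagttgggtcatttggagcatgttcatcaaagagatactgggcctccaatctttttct
Bcl11b urea, chr12:109043838-109044077, forward strand: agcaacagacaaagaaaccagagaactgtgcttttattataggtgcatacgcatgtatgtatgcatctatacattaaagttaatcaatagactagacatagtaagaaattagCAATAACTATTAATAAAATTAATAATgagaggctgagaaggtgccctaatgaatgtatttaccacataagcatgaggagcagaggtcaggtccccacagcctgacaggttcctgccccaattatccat
Lef1 urea, chr3:130983266-130983505, forward strand: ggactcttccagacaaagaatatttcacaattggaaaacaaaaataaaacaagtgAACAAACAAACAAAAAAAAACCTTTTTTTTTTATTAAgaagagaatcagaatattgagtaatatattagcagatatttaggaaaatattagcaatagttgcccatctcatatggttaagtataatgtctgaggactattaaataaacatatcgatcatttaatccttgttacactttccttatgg
The *Tox* and *Tcf12* sites were in introns of these genes, the *Gata3* site was in an intron of its neighbour *Taf3*, and the other 3 were intergenic. The longest run without G covered 65 bases at the *Gata3* site, 63 at *Ikzf1*, 37 at *Tcf12* and *Lef1*, 26 at *Bcl11b* and 25 at *Tox*. A + T made up from 57.9% of the bases (*Ikzf1*) to 72.9% (*Lef1*). A further pair of sequences shows standard peaks at the starts of *Bcl11b* (upstream of the gene) and *Lef1* (in an intron), chosen because they are start-site peaks that touch no exon. Capitals here mark the E-box letters CAGNTG, searched on both strands.
Bcl11b standard, chr12:109242228-109242467, forward strand: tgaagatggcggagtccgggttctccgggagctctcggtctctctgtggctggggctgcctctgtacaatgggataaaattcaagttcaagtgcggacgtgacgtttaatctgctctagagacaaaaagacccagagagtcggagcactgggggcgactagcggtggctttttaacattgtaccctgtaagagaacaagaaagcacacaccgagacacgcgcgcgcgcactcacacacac
Lef1 standard, chr3:130815205-130815444, forward strand: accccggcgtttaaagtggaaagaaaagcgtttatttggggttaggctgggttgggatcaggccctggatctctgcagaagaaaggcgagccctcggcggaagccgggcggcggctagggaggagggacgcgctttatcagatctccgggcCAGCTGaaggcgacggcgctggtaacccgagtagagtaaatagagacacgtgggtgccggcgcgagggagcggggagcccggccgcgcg
A + T made up 45.8% of the first and 36.2% of the second, and the longest run without G was 14 and 20 bases. The letters CAGNTG were in the *Lef1* sequence only, and 60.5% of all standard peaks of both replicates hold them within 300 bases around the summit.

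Over all 45 urea peaks that both thymocyte replicates shared in the 9 windows, the 300 bases around the summit held a median of 65.7% A + T (quartiles 61.7% and 70.0%), with a median longest run without G of 31.0 bases. All 32938 thymocyte urea peaks of this kind had a median of 69.0%. The 146 standard peaks of both replicates in the windows had a median of 50.2% A + T (quartiles 45.3% and 54.3%) and a run of 23.0 bases. The quartile ranges of A + T did not overlap between the methods. Those of the longest run did, at 26.0 to 38.0 bases for urea and 18.2 to 30.0 for standard peaks. Among the 125 of these standard peaks that lay over 1 kb from any transcript start the median was 51.7%, beside 50.7% for all 12767 such peaks of the genome. The letters of factors that work together in thymocytes were looked up in these 125 peaks on both strands. The core of RUNX sites, TGTGGT, was in 46.4% of them beside 37.8% of all distal standard peaks. The core recognised by TCF1 and LEF1, CTTTGA, was in 35.2% beside 25.8%. E-box letters were in 76.8% beside 70.8% and ETS letters, CNGGAAG, in 40.0% beside 40.2%. GATA letters, AGATAA, were in 15.2% beside 14.0%, and Ikaros letters, TGGGAA, in 20.0% beside 20.8%. These cores can overlap one another. In the 45 urea peaks, the RUNX, TCF and ETS letters were each in 17.8%, beside 13.8%, 20.0% and 8.78% of all thymocyte urea peaks of both replicates. E-box letters were in 42.2% beside 32.8%, GATA letters in 22.2% beside 28.6% and Ikaros letters in 22.2% beside 17.4%. Peaks of one window lie in one stretch of the genome and are not independent, and matching letters do not show that a factor binds.

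Standard ChIP-seq gave SATB1 peaks at the starts of all 9 genes. The study also saw some standard peaks in *Satb1*-/- thymocytes, mainly in open, gene-rich chromatin. It concluded that most standard sites depend on SATB1, most likely through indirect binding. The knockout libraries were not used here, so the start-site peaks were not checked against them. A start was called where each standard replicate had a peak within 1 kb of the same annotated transcript start, and 40.9% of all protein-coding genes were called by this rule. The members have between 2 and 8 annotated starts each, and 6 of 9 were called at the 5′ end of the gene alone, where each replicate's own peak had to lie within 1 kb. The folds below are the peak caller's enrichment at the summit over local background, in replicate 1 and replicate 2. The highest were at *Tcf12* (10.9 and 7.39, 69 bp from a start) and *Tox* (10.8 and 9.72, 234 bp). *Ets1* had 6.89 and 5.39 at 53 bp from a start 59.8 kb inside the gene, and no such peak at its first one. *Bcl11b* had 6.56 and 4.66 at 535 bp, the sequence printed above. The strongest start-site peaks of *Gata3* (5.81 and 5.68), *Lef1* (5.57 and 5.44), *Ikzf1* (5.49 and 3.31), *Bcl6* (4.65 and 4.40) and *Tcf7* (3.98 and 3.81) were lower in replicate 1 than those of the genes before them. From the 5′ end of the gene to the nearest standard peak of both replicates (by its extent in replicate 1), the median distance was 0.330 kb for the 9 genes and 11.2 kb for all genes, and *Ets1*, at 19.8 kb, was the 1 member farther than that median. The bodies of all 9 genes also held such a peak, as did 45.5% of all genes and 61.9% of those with bodies of at least 50 kb.

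By urea ChIP-seq no start of these genes was called in thymocytes (0 of 9 at the same 1 kb, beside 2.88% of all genes). The nearest thymocyte urea peak of both replicates lay a median of 45.6 kb from the 5′ end, from 19.8 kb at *Lef1* to 213 kb at *Ets1*, and 48.8 kb for all genes. Brain urea peaks lay at a median of 26.1 kb (24.0 kb for all genes), skin urea peaks at 170 kb (144 kb) and BURs at 11.0 kb (7.51 kb). Farther than the median of all genes were 4 of 9 by thymocyte urea peaks, 5 by brain, 6 by skin and 7 by BURs. CTCF, the insulator protein, lay closer in thymocytes, at a median of 2.34 kb beside 21.8 kb. It was within 1 kb of a start at 4 of 9 genes in thymocytes (*Bcl11b*, *Gata3*, *Ikzf1* and *Tox*, 14.1% of all genes) and at 2 of 9 in skin (*Bcl11b* and *Tox*, 17.3%).

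**Figure D1:**
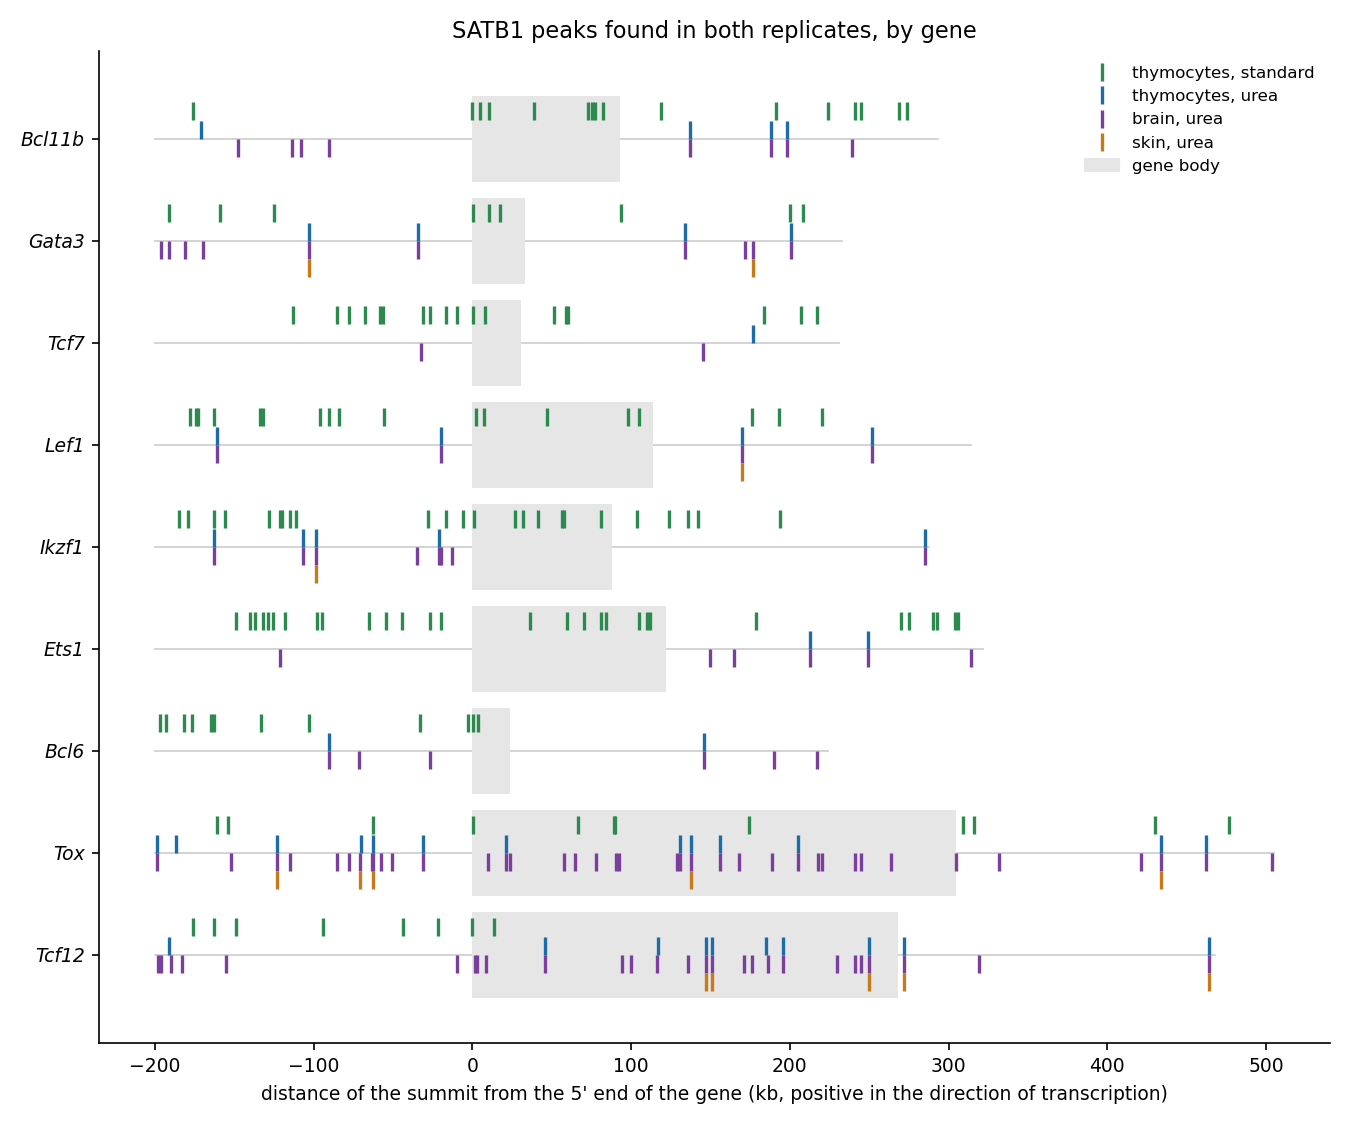
Position of each peak found in both replicates, as the distance of its summit from the 5′ end of the gene in kb (horizontal axis) for the 9 genes (rows); ticks are standard and urea peaks by tissue and grey boxes are gene bodies. Standard ticks lie at or in all 9 bodies, and urea ticks lie in the bodies of *Tox* and *Tcf12* alone.

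Urea peaks of both thymocyte replicates were inside 2 of the 9 gene bodies, *Tox* with 5 and *Tcf12* with 7 (20.2% of all genes were called; among the 6 members with bodies of at least 50 kb the count was also 2, beside 61.5% of all such genes). The same 2 genes were the ones called in brain (30.5% of all genes, 78.7% of those of at least 50 kb) and in skin (9.41% and 32.1%). A BUR lay in 6 of the 9 bodies (46.1% of all genes) and in all 6 of at least 50 kb (93.9%). They are also the longest of the members, at 305 kb and 268 kb, and they held 65 of the 74 BURs that lay in the 9 bodies. *Bcl11b* (93.2 kb), *Lef1* (114 kb) and *Ets1* (122 kb) each had 1 BUR in the body and *Ikzf1* (87.9 kb) had 6, and none of these 4 bodies was called in any tissue. *Gata3* (33.0 kb), *Tcf7* (30.8 kb) and *Bcl6* (23.8 kb) had no BUR in the body. Single libraries added a peak in the *Bcl11b* body (thymocyte replicate 2) and 3 in that of *Ikzf1* (brain replicate 1).

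Over whole windows *Tox* and *Tcf12* had the most urea peaks in every list, and *Ets1* had the most standard peaks. The counts below are for replicates 1 and 2. Lists differed in size, with 45049 and 38882 peaks for thymocyte urea, 117963 and 109154 for brain, 11210 and 10846 for skin, 48175 and 27147 for standard and 238380 BURs, so raw counts were compared only within a list. The median window of all genes held 4 and 4 peaks in thymocyte urea, 9 and 8 in brain, 1 and 1 in skin, 14 and 8 in standard, and 20 BURs.

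The HMG-box pair had like numbers of standard peaks, and *Tcf7* had fewer urea peaks than *Lef1* in every list. The *Tcf7* window held 1 and 1 thymocyte urea peaks, 2 and 2 brain, 0 and 1 skin, and 34 and 20 standard peaks, with 20 BURs. By peaks per 100 kb it ranked at the 9.44th and 10.5th percentile of all windows for thymocyte urea and at the 92.9th and 90.0th for standard. The *Lef1* window held 4 and 5, 8 and 6, 1 and 3, and 39 and 21, with 15 BURs, the fewest of the 9. It ranked between the 30.3rd and the 82.9th percentile in the urea lists and at the 91.7th and 85.8th percentile by standard.

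Of the specification and commitment factors, *Gata3* had 7 and 5 thymocyte urea peaks, 11 and 14 brain, 2 and 2 skin and 18 and 11 standard peaks, with 31 BURs. *Bcl11b* had 4 and 6, 10 and 9, 1 and 0, and 31 and 18, with 19 BURs. *Gata3* was thus above the median window in every urea list, whereas *Bcl11b* was within 2 peaks of it in each urea list and above it in both standard lists.

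*Ikzf1* had 7 and 6 thymocyte urea peaks, 12 and 11 brain, 1 and 1 skin and 36 and 25 standard peaks, with 34 BURs. *Ets1* had 3 and 3, 8 and 9, 0 and 1, and 45 and 32, with 23 BURs, the most standard peaks of any member. *Bcl6* had 2 and 3, 8 and 8, 0 and 0, and 18 and 13, with 17 BURs. By standard peaks per 100 kb, *Ets1* ranked at the 95.6th and 96.9th percentile and *Ikzf1* at the 90.6th and 92.9th, and *Bcl6* was lower, at the 63.5th and 73.9th. Of the 29 standard peaks of both replicates in the *Ets1* window, 8 lay in *Ets1* and 8 in introns of *Fli1*, a related ETS factor on its upstream side.

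*Tox* had 19 and 14 thymocyte urea peaks, 48 and 45 brain, 5 and 6 skin and 24 and 14 standard peaks, with 78 BURs. *Tcf12* had 16 and 14, 34 and 30, 5 and 5, and 20 and 15, with 50 BURs. Per 100 kb, *Tox* ranked between the 85.7th and the 93.4th percentile of all windows in the 6 urea lists and *Tcf12* between the 84.4th and the 92.0th, while by standard lists they ranked between the 47.3rd and the 61st percentile. The 2 genes with the densest urea peaks thus had the sparsest standard peaks of the 9.

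Over the 9 genes, the median density of standard peaks was 6.29 and 3.65 per 100 kb, beside 3.22 and 1.73 for all windows, and 8 and 9 of the 9 genes were above the median of all windows. The median density of thymocyte urea peaks was 0.811 and 1.15 per 100 kb beside 0.956 and 0.784, with 4 and 6 genes above the median. For brain it was 2.03 and 1.89 beside 2.00 and 1.93, and for skin 0.203 and 0.232 beside 0.246 and 0.245. The 9 genes as a list therefore stood above all windows in the standard lists and near them in the urea lists.

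**Figure D2:**
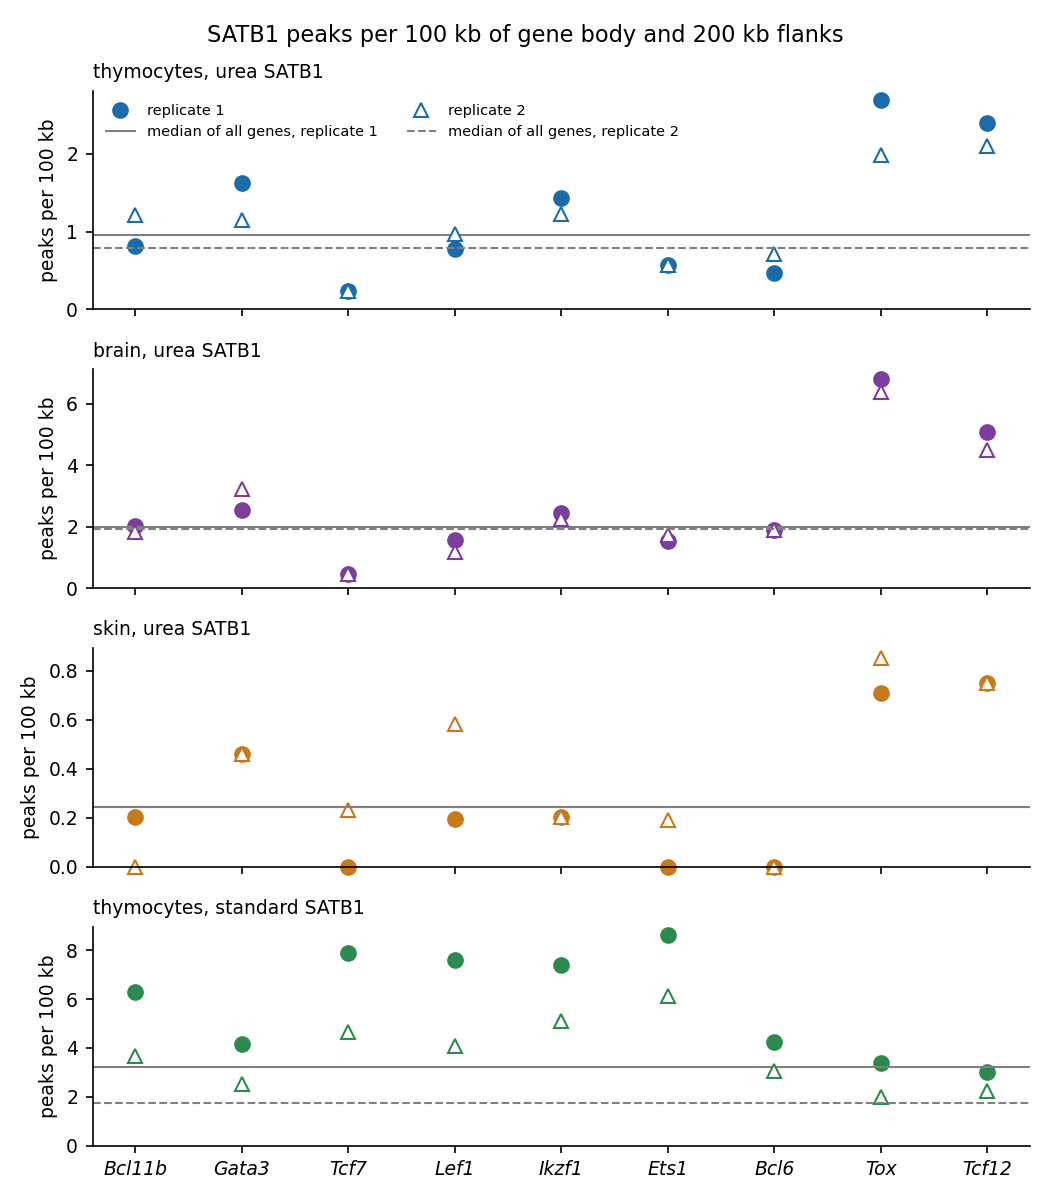
SATB1 peaks per 100 kb of gene body and flanks (vertical axis, each panel on its own scale from 0) for the 9 genes, with replicate 1 as filled circles, replicate 2 as open triangles and the medians of all windows as lines. *Tox* and *Tcf12* are the highest in the urea panels and among the lowest in the standard panel, where *Ets1* is the highest.

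To ask whether a window took a larger or smaller part of one list than of another, the peaks of a window per 10000 peaks of the list were compared on the scale of log2(value + 0.5) in limma across the 21990 windows with at least 8 peaks in the 8 SATB1 lists. Differences are thymocyte urea minus the other group, with 2 libraries in each, and they understate the change of low windows. Windows of neighbouring genes overlap and are not independent. A permutation test of 2 against 2 libraries cannot go below an exact two-sided p of 0.333, so single values outside this fit were not tested.

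Against standard ChIP-seq, all 9 windows took a smaller part of the thymocyte urea lists (limma with Benjamini-Hochberg adjustment), as did 62.6% of all windows (80.8% were called in either direction). The urea lists share the genome differently at most genes, with a median difference over all windows of -1.21, and values were read against it. The differences furthest below zero were at *Tcf7* (-3.39 ± 0.44 SE, adjusted p = 0.000385), *Ets1* (-3.18 ± 0.45, 0.000588) and *Lef1* (-2.43 ± 0.38, 0.000922). *Bcl6* (-2.12 ± 0.20, 7.23e-05), *Ikzf1* (-2.11 ± 0.14, 1.55e-05) and *Bcl11b* (-2.07 ± 0.46, 0.00502) followed and lay within 1 SE of each other. *Gata3* (-1.20 ± 0.16, 0.000358) was at the median of all windows. *Tcf12* (-0.38 ± 0.14, 0.0409) and *Tox* (-0.35 ± 0.13, 0.0468) were 0.83 and 0.86 above that median, and both calls were lost in 9 of 16 alternatives each, with adjusted p up to 0.909 and 0.293. With the replicate number as a block 7 of the 9 were called, without these 2. The median of the members was -2.11, and 6 of 9 were below the median of all windows.

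Against brain, no member was called by limma (0 of 9), and 0.0364% of all windows were (8 of 21990, with 4741 at an unadjusted p under 0.05). *Ikzf1* was the 1 member whose unadjusted p was under the threshold (0.44 ± 0.14 SE, limma adjusted p = 0.139). It was called when either standard library was left out (0.44 both times) and with lists cut to equal size (1.53). The member differences had a median of 0.26, beside 0.13 for all windows. In raw counts the 9 windows summed to 141 and 134 brain peaks against 63 and 57 in thymocytes.

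Against skin, 2 of 9 members were called, both higher in thymocytes, beside 43.4% of all windows called, 20.5% higher and 22.9% lower. They were *Bcl6* (1.13 ± 0.20 SE, limma adjusted p = 0.00484), which had no skin peak in either library, and *Ikzf1* (0.53 ± 0.14, 0.0208), with 1 in each. With *Bcl6* at 0 in skin, its fitted value depends on the added 0.5 and is no estimate of a fold. *Bcl11b* (1.01 ± 0.46, 0.125) and *Ets1* (0.52 ± 0.45, 0.394) were not called, nor were *Tcf7* (-0.20 ± 0.44, 0.766), *Gata3* (-0.29 ± 0.16, 0.179), *Tcf12* (-0.33 ± 0.14, 0.110), *Tox* (-0.34 ± 0.13, 0.0849) and *Lef1* (-0.46 ± 0.38, 0.372). The skin lists are short, and 53.5% of the windows tested had 0 or 1 peaks in both of them and 62.9% had the same count in both, so the spread in skin is poorly known. With lists of equal size no member was called, and leaving out skin replicate 1 or 2 gave 5 and 4 calls.

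**Figure D3:**
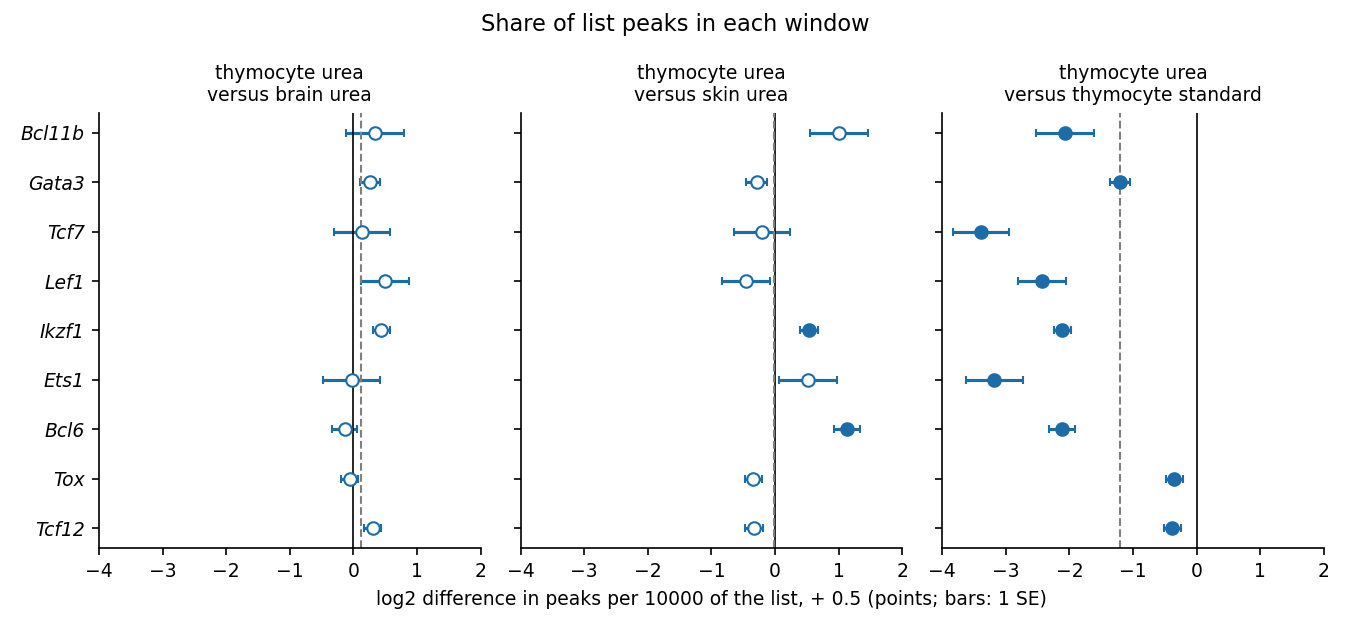
Difference in log2(peaks per 10000 of the list + 0.5) between thymocyte urea and brain urea, skin urea or thymocyte standard lists (horizontal axes) for the 9 genes; bars are 1 SE, filled points passed an adjusted p of 0.05 and dashed lines are medians of all windows. In the standard panel *Tcf7* (-3.39) and *Ets1* (-3.18) lie furthest left and *Tox* (-0.35) and *Tcf12* (-0.38) closest to zero.

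The windows of the 9 genes held 287 BURs, and SATB1 was on 13.8% ± 2.22 (SD, n = 2) of them in thymocytes, 31.5% ± 1.23 in brain and 5.23% in both skin libraries. Over all 232310 BURs the shares were 13.8% ± 1.19, 35.7% ± 2.08 and 3.67% ± 0.0511. Standard peaks were on 1.92% ± 0.246 of the 287 BURs and on 0.587% ± 0.0898 of all. The shares have no test, and they cannot be separated from list size, since with urea lists cut to equal size they were 4.88% in thymocytes, 3.48% in brain and 5.23% in skin.

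*Tox* and *Tcf12*, with 128 of the 287 BURs, had the high shares in brain. At *Tox*, 21.8% and 14.1% of 78 BURs were bound in thymocytes, 44.9% and 43.6% in brain, and 6.41% in both skin libraries. At *Tcf12*, 22.0% and 14.0% of 50 were bound in thymocytes, 44.0% and 42.0% in brain, and 10.0% in skin. Of the others *Bcl6* came closest in brain, with 41.2% and 35.3% of 17. Without *Tox* and *Tcf12*, the shares over the remaining 159 BURs were 10.4% ± 0.445 in thymocytes, 21.7% ± 1.33 in brain and 3.14% in skin. The genes left out were those with the highest brain shares in these same values. A lower remainder therefore follows from that choice and is no separate result.

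*Bcl11b* had the highest share in thymocytes, 15.8% and 21.1% of 19 BURs, which its replicates do not separate from *Tox* or *Tcf12*. *Tcf7* had the lowest, with none of 20 BURs bound in either thymocyte or skin library and 1 in brain. A count of 20 BURs is small, and *Lef1*, with 15, shows the spread that follows: 26.7% and 6.67% in the 2 brain libraries.

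**Figure D4:**
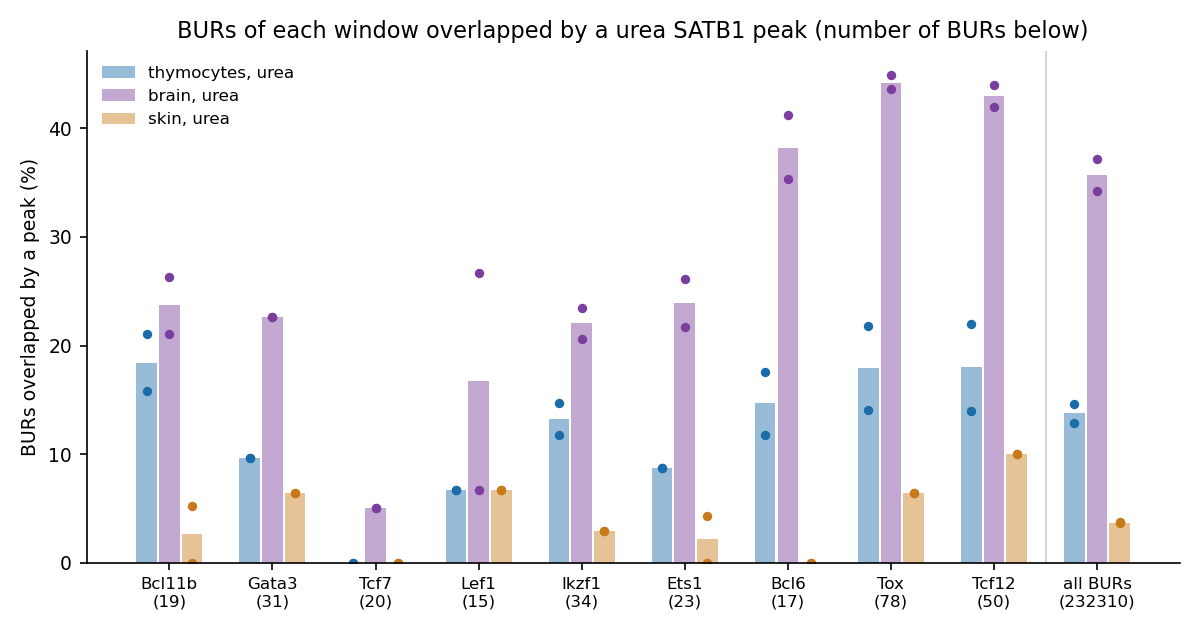
Share of BURs overlapped by a urea SATB1 peak (vertical axis, percent) in each window and over all BURs, with the number of BURs in brackets; bars are means of 2 replicates and points are the replicates. By the means brain, with the longest lists, is highest in every window, from 5.00% at *Tcf7* to 44.2% at *Tox*. At *Lef1* brain replicate 2 (6.67%) equals the thymocyte and skin libraries.

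The lists of the tissues shared the same BURs in a nested way, in the order of their sizes. Whether the nesting depends on list size was not tested. All 32 BURs bound in both thymocyte replicates were also bound in both brain replicates (97.6% over the genome). Of the 14 bound in both skin replicates, 13 were bound in both thymocyte replicates (92.9%, beside 93.5% over the genome). The exception, in the *Gata3* window, had a thymocyte peak in replicate 2 alone (14.4, beside 11.4 and 12.2 in skin). Of 84 BURs bound in brain, 39 had no peak in either thymocyte replicate (46.4%, beside 51.4% over the genome), 16 of them at *Tox* and 10 at *Tcf12*. For the in vitro fold enrichment, a BUR counted as bound in a tissue only with a peak in both replicates. BURs with a peak in a single library of a tissue thus counted as not bound there. The median fold was 12.6 for 13 BURs bound in thymocytes and skin and 7.59 for 19 bound in thymocytes but not skin. It was 6.22 for 52 bound in brain but not thymocytes and 6.50 for 203 bound in no tissue (10.2, 8.13, 6.56 and 5.35 over the genome, in this order).

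Of the 45 thymocyte urea peaks of both replicates in the windows, 26 were intergenic, 19 intronic and none exonic, and 32 lay on a BUR (71.1%, beside 79.9% of all 32938 such peaks). By single lists, 69.8% and 61.4% of the thymocyte urea peaks in the windows lay on a BUR, beside 75.8% and 77.6% over the genome. By side, 12 were in member bodies, 17 upstream and 16 downstream. Both brain replicates had a peak at 42 of the 45 (93.3%, beside 92.7% over the genome) and both skin replicates at 13 (28.9%, beside 23.1%). Each member had at least 1, and *Tcf7* had no more. In brain, the strongest peak of both replicates was at the leading thymocyte site for *Gata3* and *Bcl11b*, and elsewhere for *Tox* (chr4:6996302-6996903, 77.9 kb upstream, 22.3 and 17.9, with a thymocyte peak of 6.10 in replicate 1 alone). At *Lef1* the mean brain fold was 11.9 both at chr3:130652563-130653066, 161 kb upstream (12.3 and 11.5), and at the printed site 170 kb past the 5′ end (12.1 and 11.7).

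The strongest of these peaks at each gene were as follows, with the fold in thymocyte replicates 1 and 2. In the *Tox* window it was at chr4:6981127-6981622, 62.6 kb upstream of the gene, with 28.5 and 30.6. The same site had 29.4 and 25.6 in skin, 13.5 and 12.2 in brain and 8.55 and 7.95 in the standard lists, on a BUR with 4.50 in vitro. It was 1 of only 2 urea peaks that overlapped a standard peak. The strongest peak within *Tox*, the intronic site printed above (19.1 and 23.4), was also found in brain (18.0 and 16.3) and skin (9.01 and 7.98) and not by standard ChIP-seq.

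At *Tcf12* the strongest mean fold was at chr9:71687297-71687750, 272 kb past the 5′ end and outside the gene, with 21.8 and 24.8, and skin (16.5 and 17.0) and brain (13.4 and 18.4) shared it. Within the gene the printed intronic site had 19.3 and 21.2, with 12.4 and 11.9 in brain and 7.23 and 8.09 in skin. At *Gata3* it was the printed site, chr2:9914755-9915197, 103 kb upstream in *Taf3* and on a BUR with 12.8 in vitro. Thymocytes had 22.3 and 25.2 there, brain 25.2 and 22.7 and skin 14.4 and 15.8. In these 3 windows, and in that of *Ikzf1* below, the leading site of thymocytes was thus bound in both libraries of every tissue.

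At *Ets1* the leading site, 249 kb past the 5′ end, had 18.4 and 15.4 in thymocytes and 19.8 and 21.0 in brain, with 4.91 in 1 skin library. At *Ikzf1*, 98.6 kb upstream, it had 16.0 and 16.0, with 11.1 and 11.2 in brain and 6.08 and 9.82 in skin. At *Bcl6*, 146 kb past the 5′ end, it had 10.1 and 8.32, with 16.1 and 18.7 in brain and no skin peak. At *Bcl11b*, the printed site 198 kb past the 5′ end had 15.1 and 13.7, with 11.5 and 13.7 in brain and no skin peak. The folds of different libraries are not scaled to each other and were not compared by a test.

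At *Lef1* the strongest site, chr3:130793231-130793629, was 20.0 kb upstream and off the BUR map. It had 10.4 and 16.1 in thymocytes, 5.18 and 6.85 in brain and 6.14 in skin replicate 2 alone. The printed BUR site 170 kb past the 5′ end had 9.65 and 7.28, with 12.1 and 11.7 in brain and 6.50 and 6.75 in skin. At *Tcf7* the 1 thymocyte site, chr11:51919902-51920166 in an intron of *Ppp2ca*, had 4.32 and 5.46, was off the BUR map and had no peak in brain or skin.

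Thymocyte urea peaks without a peak in both brain replicates were thus 3 of 45 (6.67%, beside 7.30% over the genome). Besides the *Tcf7* site they were at *Bcl11b*, chr12:109412502-109412813 in an intron of *Setd3* (7.88 and 8.40, with no peak in brain or skin and no BUR), and a site 187 kb upstream of *Tox* (5.08 and 8.84, with 6.14 in brain replicate 1). Absence from a list says only that the peak caller did not pass the site at a q-value of 0.01.

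Few thymocyte urea peaks overlapped a standard peak in these windows, though a larger share did so than over the genome. Of 63 and 57 thymocyte urea peaks, 2 overlapped a peak of either standard list (3.17% to 3.51%, beside 0.599% to 0.895% over the genome), one at *Tox* and one 163 kb upstream of *Ikzf1*, where the standard folds were 14.6 and 9.26 and the urea folds 4.83 and 7.67. Between 12.3% and 22.2% lay within 3 kb of a standard peak, beside 3.94% to 6.72% over the genome. The windows also held more standard peaks per 100 kb than all windows (medians of 6.29 and 3.65, beside 3.22 and 1.73). These shares are therefore not like for like, and whether the density accounts for them was not tested. No thymocyte urea peak in the windows overlapped a CTCF peak of thymocytes (0.523% and 0.585% of each list did over the genome) or of skin (0.804% and 0.867%). Of 70 thymocyte CTCF peaks, by contrast, 44 overlapped standard replicate 1 (62.9%, beside 52.8% over the genome) and 25 overlapped replicate 2 (35.7%, beside 23.8%). Of the 146 standard peaks of both replicates, 40 were in member bodies, 71 upstream and 35 downstream, and 4 were on a BUR, 3 of them in the *Ikzf1* window and 1 in the *Tox* window.

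Other factors of T-cell specification and selection showed the same placement of standard peaks. Of 14 such genes with a protein-coding annotation (among them *Notch1*, *Runx1*, *Tcf3* and *Satb1* itself), 13 had a standard peak of both replicates at a start and *Zbtb7b*, which directs the CD4 lineage, had none. The counts were 1 of 13 for factors of progenitors and other blood lineages (*Sfpi1*, which encodes PU.1), 2 of 15 for factors of cortical neurons (*Cux1* and *Lhx2*) and 2 of 10 for factors of the epidermis (*Grhl1* and *Klf4*), against the 40.9% of all genes. These 6 genes are named after their values were seen. By thymocyte urea peaks in the body, where 20.2% of all genes were called, the lists had 5 of 14, 5 of 13, 3 of 15 and 3 of 10, beside 2 of 9 for the members. In the window test against standard, 12 of the 14 other T-cell genes were called lower in thymocyte urea by limma and none higher (62.6% and 18.2% of all windows), with a median of -1.87. The largest differences were at *Notch1*, the receptor that starts the T-cell programme (-3.96 ± 0.14 SE, adjusted p = 4.24e-06, from 0 and 0 urea against 31 and 22 standard peaks, so that the size depends on the added 0.5), *Id3*, an inhibitor of E proteins (-3.21 ± 0.20, 1.35e-05), and *Tcf3*, which encodes E2A (-3.01 ± 0.13, 4.89e-06). Against skin, 5 were called higher and 4 lower, with *Satb1* the furthest from zero (-1.81 ± 0.21, limma adjusted p = 0.00126). Its window held 11 and 16 thymocyte urea peaks against 14 and 13 in skin, so the difference is one of list share. Against brain 0 of 14 were called. The lists were assembled by hand with earlier results of these data known, and their difference was not tested.

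**Figure D5:**
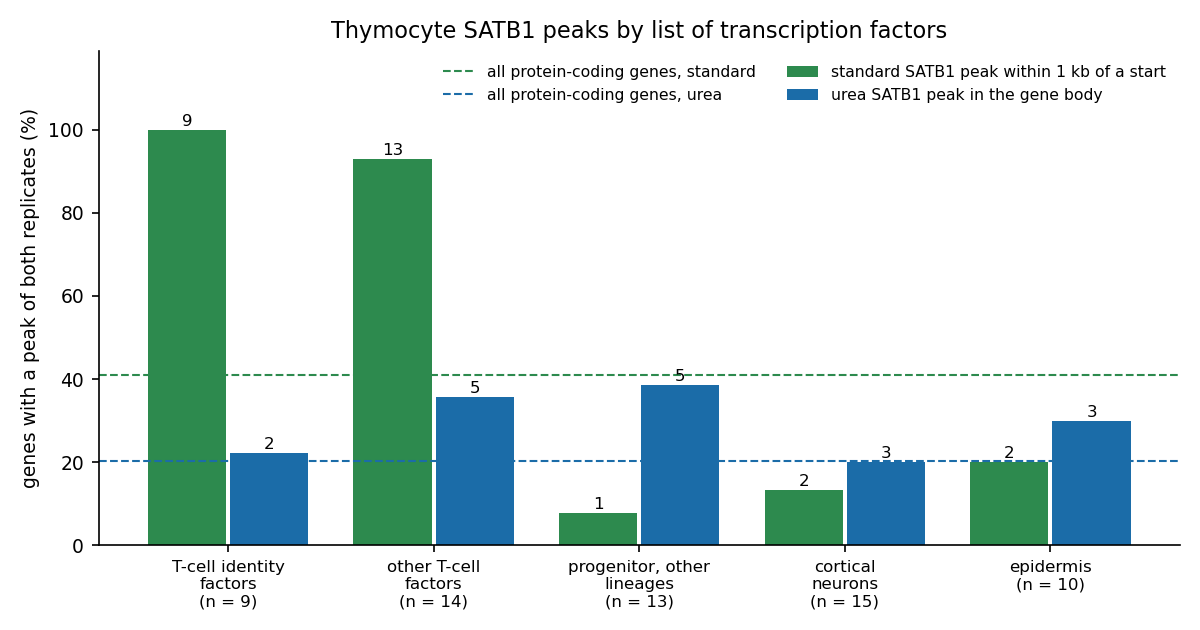
Share of genes (vertical axis, percent) with a standard SATB1 peak of both thymocyte replicates within 1 kb of a start and with a urea SATB1 peak of both in the body, for 5 lists of transcription factors; numbers over the bars are gene counts and dashed lines are all protein-coding genes. The T-cell lists reach 100% and 92.9% at the starts, and the other lists stay at or under 20.0%.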

How the data were processed

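Peak lists of 11 samples were used: SATB1 urea ChIP-seq of thymocytes, brain and skin and SATB1 standard ChIP-seq of thymocytes with 2 lists each, and the CTCF lists of thymocytes and skin and the BUR reference map with 1 list each. Groups and replicate numbers came from the sample labels. The other samples of the series were not used here.

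Per the labels and the study's methods, the authors aligned reads to mm9 (NCBI37) using bowtie2 2.3.1. Peaks were called library by library (MACS2 2.2.7, q threshold 0.01). How input libraries entered the calls is not given in the sources used here. The deposited fold enrichment is a ratio at the summit to local background within a library and is not scaled between libraries. The deposited −log10 p-values and −log10 q-values come from the authors' peak caller, and only −log10 q was used, in 1 alternative. The deposited display score was not used. The lists hold no read counts, so depth is unknown and no counting interval is given.

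A peak belongs to a window by its summit, and a peak of both replicates overlaps 1 of the other replicate by at least 1 bp. The window test was limma 3.58.1 in R 4.3.3 (trend, group means of the 8 SATB1 libraries, 4 residual degrees of freedom, Benjamini-Hochberg threshold 0.05), and it was tested on simulated data, in which the skin comparison also made calls among unchanged windows. Sequence was read from mm9 with pysam 0.24.0. All 9 members were named. Per member, the peaks named were the strongest thymocyte urea peak of both replicates, the strongest in the body, the strongest standard peak at a start and, for *Bcl11b*, *Tox*, *Lef1* and *Gata3*, the strongest brain and skin peaks. In the other lists, the 3 genes past the threshold with the largest differences were named, except 1 that is not reported here. The 10 or more genes of each other list were matched by symbol, and 1 T-cell gene that the annotation gives no protein-coding type was left out. The members and lists were chosen with earlier results of these data known.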

Additional observations from a re-analysis of the deposited data

How the results depend on the processing

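Peak lists give no depth, so a missing peak cannot be told apart from a library too shallow to call it, and list sizes differ between tissues. Alternatives were another pseudocount (1), no filter on low windows, flanks of 50 kb, a −log10 q of at least 5, lists of equal size (each cut to its best peaks by −log10 q), any overlap in place of the summit, peaks shared by all lists left out, a replicate block, peaks on a BUR only and each library left out. The standard start-site calls stayed at 9 in all of theirs but 1, the 5′ end of the gene alone (6). The calls of *Bcl11b*, *Gata3*, *Tcf7*, *Lef1*, *Ikzf1* and *Ets1* against standard held in 16 of 16 and that of *Bcl6* in 15 of 15 (it gave no value at equal size).

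The windows called against brain (8) became 3 with a pseudocount of 1, 40 with no filter, 441 with flanks of 50 kb, 24 at −log10 q of at least 5, 3248 at equal size and 1765 on BURs only, and between 0 and 1887 with a library left out (1883 and 1887 without standard replicate 1 or 2, 0 without any of the others; a lone library is assumed to vary like the other groups). The windows called against skin (9536) became 2534 at equal size. The members called against brain (0) became 1 at equal size and between 0 and 1 with a library left out, and those called against skin (2) became 4 with flanks of 50 kb, 0 at equal size, 4 on BURs only and between 1 and 5 with a library left out (1 without either thymocyte urea replicate, 5 and 4 without skin replicate 1 or 2). The median difference over all windows against brain, 0.13, was 0.00 at equal size.

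The replicate numbers are shared between groups but nothing says that a number marks a shared animal, litter or day. With the replicate number as a block the calls against brain fell to 0 windows, and the members called were 0 against brain, 2 against skin and 7 against standard.

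The share of BURs bound became 4.88% in thymocytes and 3.48% in brain at equal size. With flanks of 50 kb (127 BURs) it was 37.8% in brain and 3.94% in skin, and in skin 5.30% at −log10 q of at least 5. The share of thymocyte urea peaks near a standard peak (16.2% within 3 kb, mean over replicate pairs) was 46.7% within 10 kb.

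Of the single-gene differences, 393 kept their direction and side of the threshold, 15 came to pass it, 23 no longer passed it and 16 changed sign. None of the 16 was called in the report except *Tcf12* against standard (0.04 at equal size). Against brain they were *Tcf7* (-0.23 with flanks of 50 kb, -0.31 on BURs only), *Ikzf1* (-0.03 with flanks of 50 kb), *Ets1* (0.03 at −log10 q of at least 5, 1.53 at equal size, and between -0.12 and 0.05 with a library left out), *Bcl6* (between -0.35 and 0.08 with a library left out) and *Tox* (0.07 on BURs only, between -0.16 and 0.04 with a library left out). Against skin they were *Gata3* (0.76) and *Tox* (0.42) with flanks of 50 kb, and with a library left out *Tcf7* (between -0.96 and 0.57), *Lef1* (between -1.08 and 0.16) and *Ets1* (between -0.24 and 1.29), the extremes being those without skin replicate 1 or 2. The cause was not tested.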

Other observations

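Windows of factors from other lineages gave other values in the same fit. Against standard ChIP-seq, 7 of 15 windows of cortical neuron factors were called higher in thymocyte urea by limma and 4 lower, with a median of 0.15, beside 0 higher among the 9 T-cell identity factors. Of all windows, 18.2% were called higher and 62.6% lower. The called neuronal windows with the largest differences in either direction were all lower, and the 7 called higher had smaller differences. The largest were those of *Cux1* (-3.16 ± 0.23 SE, limma adjusted p = 2.65e-05), *Cux2* (-2.33 ± 0.13, 1.13e-05) and *Neurod2* (-2.2 ± 0.20, 6.97e-05). They have 42 and 26, 32 and 22, and 30 and 23 standard peaks. Among 13 factors of progenitors and other blood lineages 2 were higher and 9 lower, with a median of -0.98. *Lyl1* (-3.17 ± 0.22, 2.07e-05) and *Sfpi1* (-2.76 ± 0.14, 8.44e-06) were lower. *Meis1*, a homeobox factor of stem cells, was higher, with 10 and 10 thymocyte urea peaks and none in either standard list (2.53 ± 0.18, 2.21e-05, a size that depends on the added 0.5).

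Among 10 factors of the epidermis, 6 were lower against standard and 1 higher, with a median of -1.31, and *Ovol1* (-3.17 ± 0.14 SE, limma adjusted p = 5.40e-06) and *Tcfap2c* (-2.18 ± 0.15, 1.88e-05) were among those lower. Against skin, 3 of the 10 were called lower as a share of the thymocyte lists and none higher (median -0.58). Over all windows, 22.9% were lower and 20.5% higher. The 3 included *Ovol1* (-1.26 ± 0.14, limma adjusted p = 0.00103) and *Tcfap2c* (-0.54 ± 0.15, 0.0253). In raw counts, *Ovol1* had 2 and 2 peaks in each tissue, and *Tcfap2c* had 2 and 2 in thymocytes against 1 and 1 in skin. Their signs thus concern the share of a list and not the number of peaks. With equal counts in both replicates, the small SEs say little of the spread. Of the neuronal factors 1 was higher and 4 lower against skin, and of the progenitor factors 4 were higher and 2 lower. Against brain no gene of these 3 lists was called by limma, the same comparison in which 8 of all windows were.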
